A study of Mus musculus with 7 samples.

Results

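The hairpins described here are mouse miRNA precursors that entered the miRNA registry late and carry mmu-mir numbers of 1000 or more. Of the 572 hairpins for which the study tabulated tags, 159 had such a number. A further 10 were left out by name and 7 because they lie in the imprinted cluster of chromosome 12, which left 142 hairpins. A hairpin sequence was found for 128 of them, and all 128 had tags. The other 14 were mir-1186, mir-1186b, mir-1196, mir-1274a, mir-1935, mir-1937a, mir-1937b-1, mir-1937c, mir-1939, mir-1940, mir-1944, mir-1959, mir-1965 and mir-2145-1. The comparison set was the remaining 426 hairpins of the study with a sequence.

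The RNA came from HL-1 cells, an immortalised mouse line derived from atrial cardiomyocytes that keeps the ability to contract. No treatment is named for the cells, which were harvested after 1, 2, 3 or 4 days in culture, and the whole time course was run on 2 occasions. Time course 1 gave libraries of days 1, 3 and 4, and time course 2 gave libraries of days 1, 2, 3 and 4, so that day 2 had 1 library and the other days 2. The time course and the library preparation cannot be told apart.

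In the usual pathway the Microprocessor, made of the nuclease Drosha and its partner Dgcr8, cuts a hairpin out of a longer transcript, and Dicer then removes the loop. Both cuts are precise, so a well processed hairpin gives tags that share one 5′ end and one length class, mostly from a single arm of the stem. The 5′ end matters because the bases that follow it, the seed, select the target mRNAs. Some precursors take another route: mirtrons are short introns that fold into hairpins after splicing, and some small nucleolar RNAs (snoRNAs) and small Cajal body RNAs (scaRNAs) are trimmed to fragments of miRNA length.

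The 7 libraries held 41180989 deposited tags of 79503 distinct sequences, with 4945112 to 6899476 tags per library. Placement on hairpins with at most 2 mismatches accounted for all but 0.223 to 0.503% of the tags of a library. The heart and skeletal muscle miRNAs mir-1, mir-133a, mir-208a and mir-499 together held 8.43 to 10.4% of the tags of a library. They were not equally abundant. In edgeR's average log2 of tags per 1000000, mir-1 stood at 16, mir-133a at 14.71 and mir-208a at 11.27. On that scale mir-499 stood at only 3.094, below the endothelial mir-126 at 9.545, so the sum does not describe mir-499. The endothelial mir-126 reached at most 0.0919%, and the markers of hepatocytes, neurons, blood cells and epithelium at most 0.0053% each.

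The sequences below are the mature products of the hairpins on which the results turn, as listed by RefSeq on build GRCm38.p6, with bases 2 to 8, the seed, in capitals. The RefSeq table held 105 of the 128 hairpins.
miR-1839-5p: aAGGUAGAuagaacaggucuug
miR-1249-3p: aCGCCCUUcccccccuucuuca
miR-1191a: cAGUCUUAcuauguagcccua
miR-1981-5p: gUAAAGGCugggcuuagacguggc
miR-1981-3p: cAUCUAACccuggccuuugac
miR-1198-5p: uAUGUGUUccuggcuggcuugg
miR-1843a-3p: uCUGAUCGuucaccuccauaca
miR-3062-5p: gGAGAAUGuaguguuaccguga
miR-1964-3p: cCGACUUCugggcuccggcuuu
miR-3057-3p: uCCCACAGgcccagcucauagc
miR-1930-5p: aCCUCCAUaguaccugcagcgu
miR-2137: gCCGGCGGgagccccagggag
miR-1961: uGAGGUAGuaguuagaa
On GRCm38, miR-1839-5p lies at chr7:81529919-81529940 on the plus strand, miR-1249-3p at chr15:84951545-84951566 on the minus strand, miR-1981-5p and miR-1981-3p at chr1:184822465-184822488 and chr1:184822409-184822429 on the minus strand, miR-2137 at chrX:72992113-72992133 on the plus strand and miR-1961 at chr5:92788465-92788481 on the minus strand. The last of these begins with the seed GAGGUAG, which it shares with 9 mature miRNAs of the let-7 family among the hairpins of the study. The main tag of mir-1961 matched its own hairpin over 20 nt without a mismatch, 8.42% of its tags carried a mismatch, and 0.447% were shared with another hairpin. In the set, 9 mature sequences shared a seed with another hairpin, and no such count was made among the other hairpins. Among them were miR-3064-5p and miR-3085-3p, with CUGGCUG, miR-2861 and miR-3091-3p, with GGGCCUG, and miR-1928, which shared GCUACAU with miR-221-3p and miR-222-3p.

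On some hairpins the main tag was not a listed mature miRNA. The deposited tags with the most counts on 4 such hairpins are shown for comparison, read without a mismatch on GRCm38, with bases 2 to 8 in capitals.
mir-1933, 5p arm: aTCCCACAgtcatggtgt
mir-3471-1, 3p arm: gTCCAGTTtctttttgga
mir-1900, 3p arm: cCTGGAGGggacacccgggc
mir-1892, 5p arm: tGACCAAAgttttgtaaga
They map to chr11:21344653-21344670, chr4:10845529-10845546, chr9:21032280-21032299 and chr12:54645976-54645994, each on the minus strand. On mir-3471-1 only 0.824% of the tags began within 3 bases of a listed mature start, and on mir-1900 only 1.71% did.

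The 128 late-registered hairpins with a sequence were rare in these cells. Together they held 97986 tags, 0.238% ± 0.0351 (SD, n = 7 libraries) of the deposited tags. The most abundant of them ranked 111th of 554 hairpins, and only 4 had a mean above 100 CPM, where 1 CPM is 1 tag per 1000000 deposited tags of the library. Of the 128 hairpins 19 had at least 1000 tags (14.8%) and 66 at least 150 (51.6%), against 41.3% and 58.7% of the other hairpins. Their tags were concentrated, since the first 2 hairpins held 39.7% and the 19 with at least 1000 tags held 77.8%. At the low end 62 hairpins had under 150 tags, with a median of 57, and 120 of the 128 had a tag in every library. The 14 hairpins without a sequence are in none of these counts. Of these, mir-1939 and mir-1274a each have over 10000 tags with a base change in the paper. Over all libraries 0.329% of the deposited tags could not be placed, more than the 128 held together.

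Values by library are in CPM and are listed in the order day 1 of time course 1, day 1 of time course 2, day 2 of time course 2, day 3 of time courses 1 and 2, and day 4 of time courses 1 and 2. Among the 128 with a sequence, mir-1839 had the most tags, 22960. It lies in a non-coding RNA gene on chromosome 7, whose locus GENCODE also lists as a scaRNA. It stood at 549, 524, 638, 533, 555, 528 and 581 CPM. These values lay close together, and days and time courses overlapped. The second, mir-1249, had 15953 tags and overlaps an exon of 5031439G07Rik. It stood at 189, 825, 598, 181, 390, 167 and 351 CPM. All 4 libraries of time course 2 were above all 3 of time course 1. The third, mir-3096, lies at a snoRNA locus in an intron of AI506816 and had 6074 tags. It stood at 180, 141, 136, 109, 144, 131 and 175 CPM, with no separation by day or time course.

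Next came mir-1191 with 4591 tags in BC024978, at 116, 104, 123, 114, 112, 90.0 and 119 CPM. The hairpin mir-1981, which fills a short intron of Marc2, had 3706 tags and stood at 108, 92.3, 96.9, 53.2, 84.4, 90.2 and 98.7 CPM. Only the day 3 library of time course 1 stood apart, as the lowest. The hairpin mir-1198, in an intron of Gripap1, had 2726 tags and stood at 60.7, 114, 96.0, 36.1, 64.2, 36.2 and 52.8 CPM. Day 1 was above days 3 and 4 within each time course. At a scaRNA locus, mir-1843 had 2133 tags, at 53.6, 42.2, 53.8, 62.6, 44.5, 60.5 and 48.7 CPM. On each of days 1, 3 and 4 its value was lower in time course 2.

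The remaining 8 of the 15 most abundant placed hairpins lay at means of 34.8 to 48.5 CPM. In an intron of Syap1, mir-3473 stood at 61.2, 36.3, 53.0, 45.2, 40.6, 48.8 and 50.8 CPM, with overlapping days. In an intron of Slc2a1, which encodes the glucose transporter GLUT1, mir-1957 stood at 43.5, 23.2, 46.7, 51.5, 36.6, 77.05 and 60.6. Both day 4 libraries were its highest. Overlapping an exon of Pfas, an enzyme of purine synthesis, mir-3062 stood at 57.1, 39.6, 43.5, 43.4, 46.4, 34.6 and 54.1 CPM, and its order of days differed between the time courses. In an intron of Ugp2, which makes UDP-glucose, mir-1933 stood at 26.1, 24.04, 56.0, 54.5, 30.4, 48.7 and 45.5. Both day 1 libraries were its lowest. In an intron of Zfp84, mir-1964 stood at 53.3, 58.2, 40.4, 28.9, 42.8, 23.5 and 20.6, with both day 1 libraries highest and both day 4 libraries lowest. The intergenic mir-3471-1 stood at 25.3, 38.0, 58.9, 21.1, 38.1, 36.2 and 33.8 CPM, and its single day 2 library was the highest. In an intron of Rnf215, mir-3060 stood at 38.1, 50.3, 36.3, 26.3, 33.3, 27.7 and 31.7, with both day 1 libraries highest. Antisense to an intron of a pseudogene, mir-1195 stood at 36.1, 32.1, 47.2, 40.1, 33.8, 35.2 and 20.9, and 35.2% of its tags carried a mismatch, against a median of 5.32% over the 66 hairpins with at least 150 tags. The last 4 with at least 1000 tags were mir-1961 (1342), mir-1946b (1275), mir-2137 (1040) and mir-3057 (1023).

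**Figure D1:**
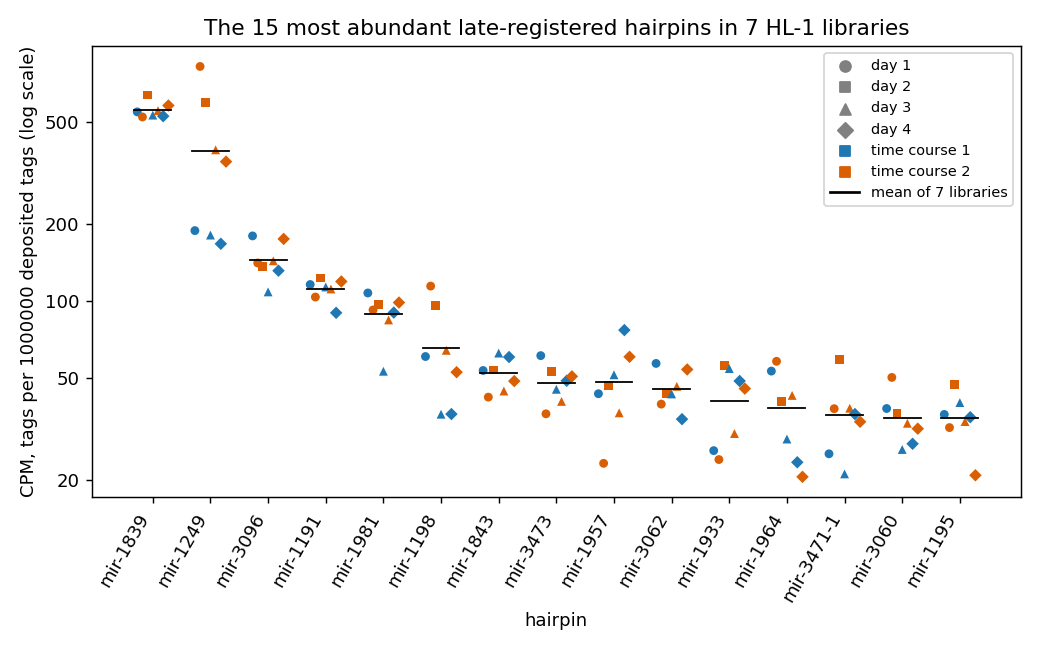
Tag counts in CPM (log scale) of the 15 late-registered hairpins with the most tags among those with a sequence. There is 1 point per library, its colour for the time course, its shape for the day, and a bar for the mean of 7 libraries. The points of mir-1839 lie between 524 and 638, whereas those of mir-1249 fall apart by time course, from 167 to 825.

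The tags of the late-registered hairpins were less uniform at the 5′ end. For each hairpin with at least 150 tags, the main start is the 5′ position with the most tags in the merged libraries, and its share was taken in each library. The median share at the main start was 44.6% ± 2.09 (SD, n = 7 libraries) over 66 late-registered hairpins and 80.4% ± 0.575 over 250 other hairpins. The difference within a library was −35.8 points ± 1.85, from −39.3 to −33.4, and it was lower in 7 of 7 libraries (exact two-sided sign-flip permutation test, p = 0.0156, the smallest that 7 libraries allow). The test treats the libraries as separate samples, and they stem from 2 runs of the time course. The same hairpins entered every library, with main starts chosen in the merged libraries, so the p does not measure the spread between hairpins. The same limit holds for the tests of length and arm below. Hairpins of lower abundance were more common among the late-registered, and within the band of 150 to 10000 tags the difference was −17.3 points (64 against 120 hairpins, exact sign-flip permutation p = 0.0156).

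Among the 66, the most uniform starts were those of mir-1249, with 98.9% of tags at the main start, mir-3062 (93.3%), mir-1198 (93.1%), mir-1961 (89.0%) and mir-1900 (87.3%). In all, 10 hairpins exceeded 80%. The least uniform were mir-1192 (11.5%), mir-1954 (14.9%), mir-1905 (16.1%), mir-1195 (18.1%) and mir-1224 (18.4%), and 12 lay under 25%. Of the 58 with a listed mature start, 23 had over 80% of their tags within 3 bases of one and 15 under 20%. The medians of that share were 70.0% here and 97.8% for 231 other hairpins.

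Lengths spread in the same way. The median share of tags of 20 to 24 nt, the length of a Dicer product, was 73.9% against 90.4%, a difference of −16.5 points ± 3.50 that was negative in 7 of 7 libraries (exact two-sided sign-flip permutation test, p = 0.0156). In the band of 150 to 10000 tags it was −11.1 points, and with at least 1000 tags it was −10.3 points. The highest shares were those of mir-1191 (97.3%), mir-3062 (96.8%), mir-1249 (96.8%), mir-3101 (95.8%) and mir-1964 (95.5%). The lowest were mir-3096 (7.54%), mir-1904 (15.7%), mir-1933 (22.8%), mir-3093 (22.9%) and mir-3471-1 (23.0%). On mir-3096 the most common length was 27 nt and 90.7% of the tags exceeded 24 nt. On 20 of the 66 hairpins, among them mir-1933, mir-1957 and mir-3471-1, the most common length was 18 or 19 nt. The study mapped each tag through a stretch of 18 nt, its anchor, so these lengths lie near the lower limit of that mapping. The first base at the main start was T on 19 hairpins (28.8%), C on 19, G on 18 (27.3%) and A on 10 (15.2%), while T led on 49.2% of the other 250. First bases were not compared within the band of 150 to 10000 tags.

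**Figure D2:**
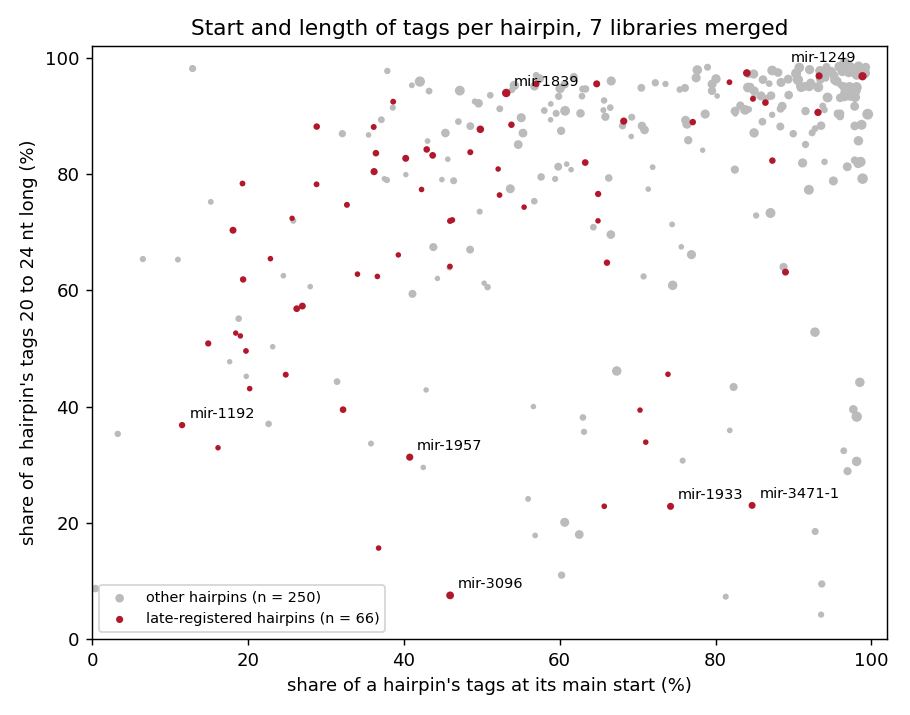
Each point is a hairpin with at least 150 tags in the merged libraries, by its share of tags at the main start (horizontal, %) and its share of tags of 20 to 24 nt (vertical, %), with red for the 66 late-registered and grey for the 250 other hairpins, and with point size rising with tag number. The grey points crowd the upper right corner, where mir-1249 lies at 98.9% and 96.8%, whereas the red points spread to the left and downwards, with mir-3096 at 45.9% and 7.54%.

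**Figure D3:**
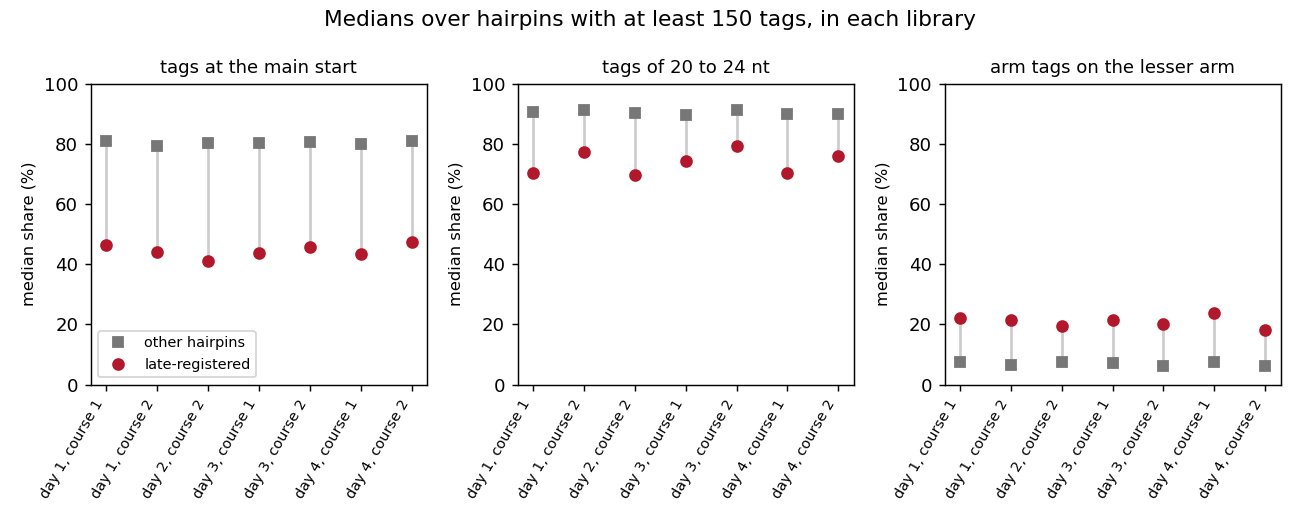
Median shares (%) over late-registered (red) and other hairpins (grey) in each of the 7 libraries, for tags at the main start, tags of 20 to 24 nt and arm tags on the lesser arm. The red points lie below the grey points in the first 2 panels and above them in the third, in every library.

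Both arms of the stem were more often represented. The arm with fewer tags in the merged libraries held a median of 20.9% ± 1.91 of the arm tags of late-registered hairpins and 6.97% of those of other hairpins. The difference was 13.95 points ± 1.61 and positive in 7 of 7 libraries (exact two-sided sign-flip permutation test, p = 0.0156). In the band of 150 to 10000 tags it was 5.34 points, and with at least 1000 tags 7.96 points. The lead arm was the 5p arm on 30 and the 3p arm on 36 of the 66 hairpins.

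The lesser arm held at least 20% of the arm tags on 34 hairpins, at least 40% on 11. Of those with at least 1000 tags these were mir-3473 (48.2%), mir-1981 (45.3%), mir-1946b (44.5%), mir-1195 (40.3%), mir-1839 (35.1%), mir-3057 (33.0%) and mir-1964 (30.6%). At 40% or more there were also mir-1954 (49.6%), mir-3097 (47.5%), mir-1938 (44.6%), mir-3095 (43.3%), mir-3066 (43.0%), mir-3058 (42.8%) and mir-1903 (41.6%). From 30 to 40% lay mir-1953 (39.7%), mir-3113 (39.7%), mir-1927 (38.7%), mir-3098 (37.9%), mir-3064 (37.4%), mir-3470a (36.8%), mir-3079 (35.8%), mir-3091 (34.9%), mir-3084 (34.2%) and mir-1966 (34.1%). The others were mir-1224 (28.3%), mir-1955 (28.1%), mir-1929 (27.1%), mir-1951 (27.0%), mir-3076 (25.2%), mir-1968 (24.6%), mir-1192 (24.4%), mir-3108 (22.3%), mir-1904 (21.6%) and mir-3100 (20.4%).

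On several of these the balance of the arms moved between libraries. The 5p arm of mir-1839 held 65.2% ± 8.81 (SD, n = 7) of its arm tags, and that of mir-1981 43.7% ± 13.7, from 31.0 to 63.7%. The day 1 and day 4 libraries did not overlap in the 5p share on 9 of the 19 hairpins with at least 1000 tags, near the share among all 195 hairpins of that abundance (40.5%). The 9 were mir-1839, mir-3096, mir-1191, mir-3473, mir-1933, mir-1964, mir-1195, mir-2137 and mir-3057, and 2 of them are given in full as examples chosen after their values were seen. The 5p share of mir-3057 was 62.2 and 44.5% in the day 1 libraries of time courses 1 and 2 and 21.3 and 14.1% in those of day 4, with days 2 and 3 between 21.7 and 29.5%. That of mir-1964 ran the other way, with 28.6 and 20.9% on day 1 and 48.3 and 39.4% on day 4. No test was made of these shares.

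The ends of the 2 arms can be read as a duplex. On the predicted fold, the most common form of each arm was paired with the other to see how far each 3′ end overhung, since Drosha and Dicer both leave short 3′ overhangs. Where both arms had at least 10 tags, both overhangs were 1 to 3 bases on 18 of 62 late-registered hairpins (29.0%) and on 130 of 247 others (52.6%). Where each of the 2 forms itself had at least 10 tags, the counts were 16 of 44 (36.4%) and 127 of 200 (63.5%). The duplex of mir-1839 had overhangs of 3 and 2 bases, that of mir-3473 2 and 3, that of mir-1964 2 and 3, and that of mir-3057 1 and 1. Outside that range were mir-1981 with 2 and 4 bases, mir-1946b with 5 and 1, and mir-1195 with 20 and 20. On mir-1933 the values were −5 and −10 and on mir-3096 −2 and 1, where a negative value marks a 3′ end that falls short.

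Most late-registered hairpins lay inside genes. On the GENCODE annotation of GRCm38, 65 of 128 (50.8%) lay in an intron, 38 (29.7%) overlapped an exon of some transcript, 17 (13.3%) were intergenic, 7 were antisense to an intron and 1 antisense to an exon. Of the other hairpins 43.2% were intronic, 20.4% exonic and 27.0% intergenic. Another miRNA gene lay within 10 kb on the same strand for 8 of the 128 (6.25%) and for 56.3% of the others. The selection itself had removed 7 hairpins of the chromosome 12 cluster, and without the 58 hairpins of that cluster among the others the latter share was 50% of 368. The predicted folding energy had medians of −42.5 and −43.3 kcal/mol per 100 nt among late-registered and other hairpins with at least 150 tags.

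Several sat at other kinds of small RNA gene. On either strand, 7 of the 128 (5.47%) overlapped one, against 0.704% of the other hairpins. The 5 with at least 150 tags were mir-1839, mir-1843 and mir-3096, described above, and mir-3084 and mir-1949 at snoRNA loci, with 708 and 296 tags. Except for mir-3096 their tags were of miRNA length, with 88.1 to 93.9% at 20 to 24 nt. In introns of at most 150 bases, the setting of mirtrons, lay 6 hairpins. Both ends of the intron coincided with those of the hairpin for mir-1981 (82 bases, Marc2, a mitochondrial reductase), mir-1982 (74 bases, Oaz1, the antizyme of ornithine decarboxylase) and mir-1224 (85 bases, Vwa5b2). For mir-3087 in Abca2 and mir-3077 in Sap18 only the 3′ end did, and mir-3103 had under 150 tags. The tags followed the intron ends on mir-1981, where 99.1% began within 3 bases of a listed mature start, the 5p tags at base 1 of the hairpin and the main 3p tag ending at its last base, 82. On mir-1982, with 942 tags, 89.7% did so, mostly from the 3p arm. On mir-1224, with 152 tags, 17.8% did.

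Antisense to another miRNA hairpin lay 29 of the 426 other hairpins and, no more often, 3 of the 128 members. The most abundant, mir-3074-1, is transcribed from the strand opposite Mir24-1 and had 785 tags, of which 33.6% matched only another copy of the hairpin. Its 3p arm held most tags, and 6.62% began within 3 bases of the 1 listed mature miRNA, which lies on the 5p arm. The other two were mir-3065, opposite Mir338, with 68 tags and mir-3073 with 36. Named for their host genes, which act in miRNA processing, are 2 further hairpins. The first, mir-1306 (774 tags), overlaps an exon of Dgcr8, the partner of Drosha, and gave no 5p tag and 98.7% of its tags near the listed starts. With 254 tags, mir-3064 overlaps an exon of Ddx5, an RNA helicase that acts with the Microprocessor.

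The comparison of day 4 with day 1 asks which hairpins changed, relative to the other tags, as the culture went from few to many beating cells. All counts were scaled to the tags of their library, so higher and lower mean a relative change, not a change in amount per cell. The paper reports a bulk rise in miRNA as the cells reached confluency, measured by PCR against snoRNAs. Scaled tag counts cannot show such a rise. In the fit by day over all 7 libraries, edgeR's quasi-likelihood test called 0 of 113 late-registered hairpins tested at an adjusted p under 0.05 and 0 of 483 hairpins in all (0%). At an unadjusted p under 0.05 there were 10 late-registered hairpins, 8.85% of those tested, near the 9.32% among all hairpins, and DESeq2 called 1 after adjustment (1.24% of all). Libraries of the same time course deviated together, and with the time course as a block edgeR called 6 late-registered hairpins, 5.31% of those tested against 7.45% of all 483. Of these 4 were higher on day 4 (3.73% of all hairpins were) and 2 lower (3.73% of all).

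The strongest was mir-2137, in an intron of Zfp185 on chromosome X. Its 7 libraries stood at 13.8, 13.1, 14.97, 14.1, 25.9, 52.6 and 43.8 CPM. Both day 4 libraries were well above all others. The log2 fold change was 1.98 ± 0.409 (SE), with an edgeR adjusted p of 0.229 by day and 2.67e-06 with the block, and DESeq2 gave an adjusted p of 0.00303. Its tags were heterogeneous, with 26.3% at the main start and 56.8% at 20 to 24 nt, and the listed miRNA began at 16.1% of its tags.

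With the block, mir-1957 rose on day 4 by a log2 fold change of 1.24 (edgeR adjusted p = 0.00611) and mir-1933 by 1.05 (edgeR adjusted p = 0.0223). On both the most common tag length was 18 nt, the anchor length of the study's mapping. The hairpin mir-1930, over an exon of the ubiquitin-conjugating enzyme gene Ube2g2, stood at 12.001, 9.78, 24.8, 22.1, 25.4, 21.6 and 23.0 CPM. Its day 1 libraries were the lowest and all later ones near each other, with a log2 fold change of 1.18 (edgeR adjusted p = 0.00868 with the block). The pair that fell were mir-1964, with a log2 fold change of −1.19 (edgeR adjusted p = 0.00694), and mir-1968, in an intron of Grtp1, with −1.71 (edgeR adjusted p = 0.0183). The latter rested on 171 tags and stood at 7.61, 6.89, 1.77, 1.67, 6.04, 2.83 and 1.30 CPM, so that the day 3 library of time course 2 lay with day 1. By day alone the adjusted p of these 5 lay between 0.330 and 0.472.

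**Figure D4:**
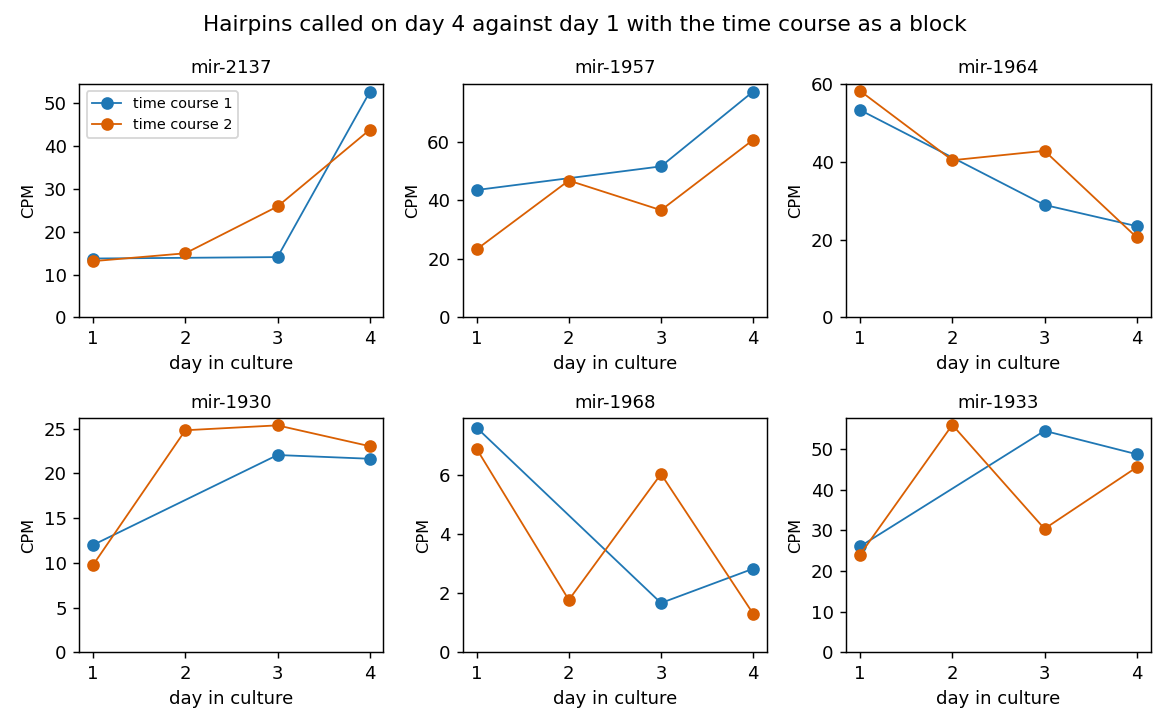
Tag counts in CPM (vertical, from 0) by day in culture (horizontal) for the 6 late-registered hairpins called on day 4 against day 1 with the time course as a block, with 1 point per library and a line for each time course. In mir-2137 the day 4 points, 52.6 and 43.8, stand above the day 1 points, 13.8 and 13.1.

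Within each time course the same direction from day 1 to day 4 was seen for 43 of the 66 hairpins with at least 150 tags (65.2%), against 70.9% of all 316 such hairpins. A 2-fold change in the same direction in both was seen for 3 (4.55%), against 5.38% of all, and in opposite directions for 0 of the 316 (0%). The median log2 fold change over the 113 tested was 0.06, close to the 0.0651 of all 483, and 61 of the 113 were higher and 52 lower on day 4.

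The comparison of time course 2 with time course 1, with day as a factor, shows how far a hairpin varied between repeats of the same culture. Here edgeR called 65 of 483 hairpins (13.5%) and 6 of 113 late-registered ones (5.31%). Of these 5 were higher in time course 2, as were 7.66% of all hairpins. The count changed with single libraries left out: it was 0 without either library of day 1 and without the day 4 library of time course 2. It was 3 without either library of day 3 and 7 without that of day 2. Leaving out a library of day 1, 3 or 4 also leaves that day with 1 time course. Fewer libraries then inform the comparison, so a lost call need not reflect the library left out. DESeq2 called 2, mir-1249 and mir-1198 (8.9% of all hairpins).

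The lowest adjusted p was that of mir-1249, given by library among the most abundant hairpins, with a log2 fold change of 1.45 ± 0.261 (SE, edgeR adjusted p = 9.78e-06). It was higher in time course 2 on each of the 3 days with both libraries. Without the day 1 libraries, in turn, it was 1.04 and 1.06, with edgeR adjusted p of 0.179 and 0.126. For mir-1900 the libraries stood at 9.66, 35.6, 30.7, 9.45, 12.4, 8.49 and 13.2 CPM, and the log2 fold change was 1.03 ± 0.285 (edgeR adjusted p = 0.00651). The time courses differed most on day 1, and without a day 1 library the log2 fold change was 0.47 or 0.49. For mir-1198 it was 0.79 ± 0.255 (edgeR adjusted p = 0.0244).

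Lower counts lay behind 2 others. In an intron of Ryr1, the calcium release channel of skeletal muscle, mir-1963 had 110 tags and stood at 0.439, 3.21, 6.50, 0.371, 2.76, 2.63 and 3.33 CPM, with a log2 fold change of 1.64 ± 0.503 (edgeR adjusted p = 0.0172). The log2 fold change was 2.87 and 2.79 without the day 4 library of time course 1 or 2, and 1.10 and 1.12 without that of day 1, and its call was lost in 8 of 14 alternatives. The other, mir-1892 over an exon of Sptssa, stood at 5.71, 2.08, 7.49, 3.34, 3.11, 8.09 and 2.46, and it was lower in time course 2 by a log2 fold change of −1.10 ± 0.387 (edgeR adjusted p = 0.0454). Its day 2 library, of time course 2, was among the highest. The last, mir-3057 over an exon of Apba3, stood at 20.9, 36.4, 22.7, 20.9, 28.7, 15.2 and 26.7, with a log2 fold change of 0.71 ± 0.255 (edgeR adjusted p = 0.0492).

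**Figure D5:**
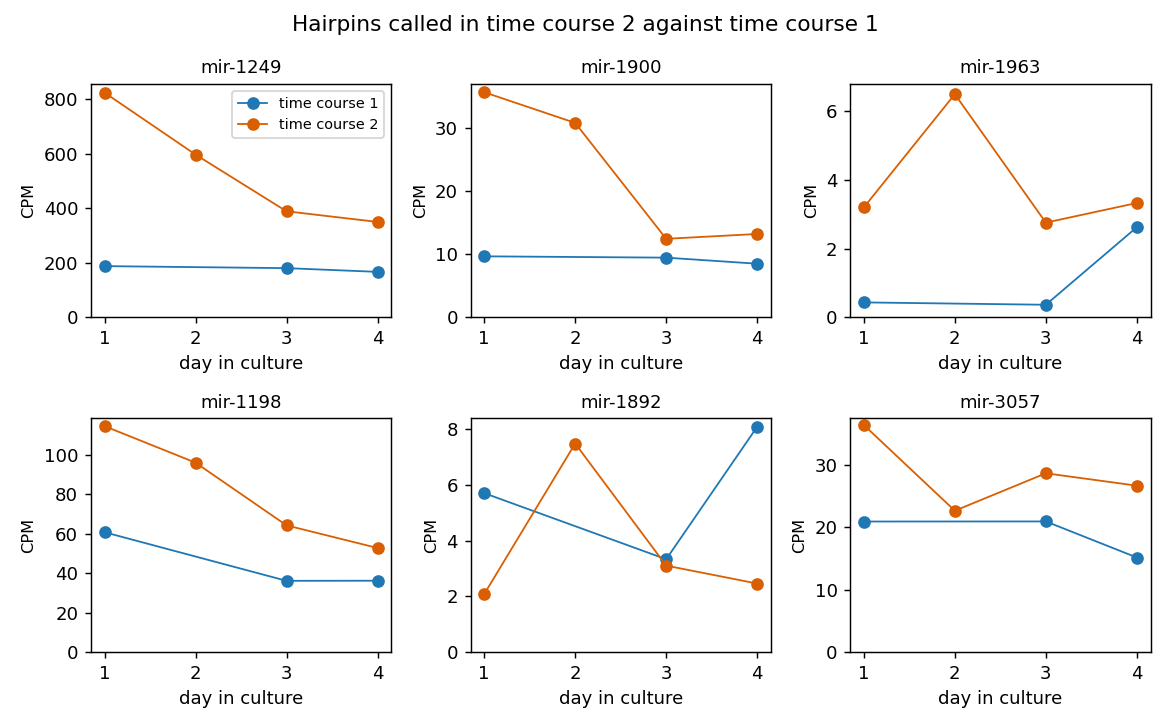
Tag counts in CPM (vertical, from 0) by day in culture (horizontal) for the 6 late-registered hairpins called in time course 2 against time course 1, with 1 point per library and a line for each time course. For mir-1249 the line of time course 2 runs from 825 to 351, above that of time course 1, from 189 to 167.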

How the data were processed

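Small RNA below 70 nt was size-selected and sequenced on the SOLiD platform. The deposited files hold, for each of 7 libraries, distinct tags on miRNA hairpins with their raw counts, which the authors mapped with the SOLiD Small RNA Pipeline to miRBase hairpins and the mouse genome (mm9 in the submitters' processing notes) and did not normalize. Lines without a sequence (101, with 293 tags) were left out. Columns of the study's own tables served only to name hairpins. Members and lists were chosen with earlier results of these data known.

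Each tag was placed again, without gaps, on 554 hairpins and 72 copies with at most 2 mismatches and 4 overhanging bases, over at least 16 nt, and ties were divided equally. Without a mismatch were 92.9% of the tags. Hairpin sequences and positions came from GENCODE M21 (GRCm38) or RefSeq, and folds from RNAfold 2.7.2. Of simulated tags 99.7% were placed on their origin, and of random sequences 0.

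Counts per hairpin, rounded to whole numbers, were tested with edgeR 4.0.16 (R 4.3.3; TMM, filterByExpr, quasi-likelihood, Benjamini-Hochberg over 483 hairpins) and, as an alternative, DESeq2 1.42.0. Standard errors were derived from the fold change and its F statistic. The fit by day had 3 residual degrees of freedom and a biological coefficient of variation of 0.348, that by day and time course 2 and 0.22. In simulated counts of 463 hairpins for day 4 against day 1, edgeR recovered 49 of 50 hairpins changed 8-fold, with 2 false calls. The simulation held no time-course effect, and its change was larger than any described for day 4 against day 1. It therefore does not show whether smaller changes would be found in these libraries. Replicate numbers stand for the repeats of the time course, and residuals of libraries with the same number correlated at 0.414, 0.42 and 0.422 over 483 hairpins, so they were taken as paired and a blocked fit is given beside the fit by day. Shares were compared within libraries by an exact sign-flip permutation test. Named were hairpins with at least 1000 tags, those past an adjusted p of 0.05, the 5 extremes of start and length shares at 150 tags or more, those whose lesser arm held at least 20%, and those with the annotations described. P-values measure only the spread between these libraries.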

Additional observations from a re-analysis of the deposited data

Results flagged for a closer look

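For the 19 hairpins with at least 1000 tags, the ratio of time course 2 to time course 1 was compared between day 1 and day 4. It ran in opposite directions on the 2 days for 9 of them. That share was not counted among the other hairpins, so it is not shown to be particular to this set. Some ratios lay near no change, as for mir-1839 with a log2 ratio of −0.0662 on day 1 and 0.139 on day 4. With 1 library per day and time course the differences were not tested. As day 4 minus day 1 in log2, the difference was 1.17 for mir-3062, 0.81 for mir-3473, 0.763 for mir-3096, 0.568 for mir-1191, 0.35 for mir-1981 and 0.205 for mir-1839. It was −0.707 for mir-1961, −0.685 for mir-3471-1 and −0.317 for mir-1964.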

How the results depend on the processing

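On day 4 against day 1, the count of late-registered hairpins called by edgeR was 0 by day, 6 with the time course as a replicate block and 1 with DESeq2. It stayed at 0 with library totals, the size factors of DESeq2, no filter, tags without a mismatch, tags on a single hairpin and arms apart. It was also 0 by the 2-fold rule of the study, which only 1 placed late-registered hairpin had the tags to enter. By that rule the paper scored miR-1196 as down-regulated, but mir-1196 had no sequence here and could not enter. For time course 2 against time course 1 the count was 6, and it was 2 with DESeq2, 1 with tags without a mismatch, 1 over days 1, 3 and 4 without day in the fit, and 0 to 7 with each library left out. The cause was not tested. Of the 6 called there, mir-1249 lost its call in 3 of 14 alternatives, mir-1900 in 6, mir-1198 in 7, mir-1963 and mir-1892 in 8 each and mir-3057 in 13. Directions held in each of the 14 alternatives that count whole hairpins, for these 6 and for the 6 called with the block. With arms apart, directions were not compared for named hairpins. The block changed no other call described here. The differences in start share (−36.2 to −35.2 points), length share (−17.3 to −15.8 points) and lesser arm (13.6 to 14.3 points) held with each library left out, with an exact permutation p of 0.0312 from 6 libraries, the smallest they allow. They kept their direction under the other alternatives too. With at least 25 tags they were −21.1, −15.7 and 10.5 points, and with the mean in place of the median −24.01, −12.9 and 8.96 points. Depth limits the 62 hairpins under 150 tags, for which no shares are given.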
